A study of Mus musculus with 30 samples.

Results

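The MHC class II presentation genes described here are 8 mouse genes, found in the tables by Ensembl identifier out of 50764 gene models: H2-Aa, H2-Ab1, H2-Eb1, Cd74, H2-DMa, H2-DMb1, Ciita and Cd86. They were followed across 30 RNA libraries of mouse macrophages and podoplanin-positive (PDPN+) stromal cells, in 10 groups of 3. Macrophages were profiled ex vivo (labelled lpm_exvivo, from a lavage), after culture alone, after culture with 1 µM all-trans retinoic acid (ATRA, the active form of vitamin A), from co-culture with PDPN+ cells, from a group labelled tw and written here as transwell, and with 1 µM BMS493, which holds retinoic acid receptors in their inactive state. The PDPN+ cells, labelled om_pdpn, were profiled alone, from co-culture, from transwell and with 1 µM BMS493. Whether macrophages and PDPN+ cells shared the BMS493 cultures is not in the labels, so the BMS493 groups are set beside both the co-culture and the cells alone. Cultured cells were sorted as F4/80+ or PDPN+ into lysis buffer; a sort of the ex vivo cells, the strain, age and sex, the time in culture, the cytokines in the medium and the origin of each replicate as a separate animal are not stated. Each group has 1 library from each of 3 labelled batches (mbb336, mbb339 and mbb340, which are replicates 1, 2 and 3). Without a stated animal of origin, the p-values measure the spread between these libraries, which may be partly technical.

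MHC class II molecules are pairs of an alpha and a beta chain that carry peptides from the endosome to the cell surface, where CD4+ T cells read them. The invariant chain, encoded by Cd74, holds new class II molecules and guides them to the endosome, where cathepsins trim it and H2-DM swaps the remaining fragment for a peptide. Ciita is the class II transactivator, which is recruited by RFX, NF-Y and CREB factors bound at class II promoters, and Cd86 gives the costimulatory signal through CD28. Resident macrophages of the peritoneal cavity that are high in F4/80 are known for low class II, and cavity macrophages low in F4/80, dendritic cells and B cells for high class II.

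Positions are given in GRCm38 and count from 1. H2-Aa (ENSMUSG00000036594), the alpha chain of I-A, spans chr17:34282744-34287823 on the minus strand. Its partner, the beta chain gene H2-Ab1 (ENSMUSG00000073421), spans chr17:34257689-34269419 on the plus strand. H2-Eb1 (ENSMUSG00000060586), the beta chain of I-E, spans chr17:34305867-34316674 on the plus strand and overlaps the antisense gene Gm20513. Both chains of H2-DM are on the plus strand of the same chromosome: H2-DMa (ENSMUSG00000037649) spans chr17:34119541-34139101 and overlaps 4 other gene models, Brd2 among them, and H2-DMb1 (ENSMUSG00000079547) spans chr17:34153072-34160230 beside its near copy H2-DMb2. Cd74 (ENSMUSG00000024610) lies apart from them, and its span overlaps the microRNA gene Mir5107. Ciita (ENSMUSG00000022504) spans chr16:10480059-10528418 on the plus strand and overlaps the antisense gene Dexi, and Cd86 (ENSMUSG00000022901) spans chr16:36603869-36666081 on the minus strand. The strand setting of the counting is not given, so reads of H2-Eb1, H2-DMa and Ciita cannot be told apart from reads of genes that overlap them, nor with certainty reads of H2-DMb1 from those of H2-DMb2.

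Class II promoters are known for short shared motifs, and the promoters of H2-Aa and H2-Eb1 are printed because both genes fell in culture. RefSeq promoter windows of GRCm38.p6, from 250 bases before to 50 bases after a start, were at hand for 4 of the 8 genes. The capitals mark CTNGNAAC, a core of the X box bound by RFX, and TGATTGG, which holds the reversed CCAAT box of NF-Y; both were spelled out after these promoters had been read. The 120 bases before each start are given 5′ to 3′ on the strand of the gene, H2-Aa at chr17:34287824-34287943 (minus strand) and H2-Eb1 at chr17:34305747-34305866 (plus strand).
H2-Aa: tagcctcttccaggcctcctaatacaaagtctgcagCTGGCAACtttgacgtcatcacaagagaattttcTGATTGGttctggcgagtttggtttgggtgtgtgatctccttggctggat
H2-Eb1: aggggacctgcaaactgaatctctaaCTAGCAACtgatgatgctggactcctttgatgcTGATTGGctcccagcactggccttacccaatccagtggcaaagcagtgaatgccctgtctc
In H2-Aa the motifs start 84 and 50 bases before the gene's start, and in H2-Eb1 94 and 61 bases before it. H2-DMb1, one chain of H2-DM, holds the same pair at 97 and 63 bases before its start. No pair was found in the windows at the 2 starts of H2-DMa, and no window was at hand for H2-Ab1. Among related class II genes, H2-Ob held the pair at 90 and 59 bases before its start, H2-Oa and H2-DMb2 held TGATTGG without CTNGNAAC, and H2-Eb2 held both motifs but not as an ordered pair. Searched on both strands in 32851 promoter windows, CTNGNAAC occurred in 13.2%, TGATTGG in 7.82%, and the ordered pair on 1 strand, with starts at most 40 bases apart, in 28 windows (0.0852%). A match describes the sequence and does not show that a factor binds there.

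Libraries held 29350158 to 54099085 counts from 2148 to 25000 cells. Levels are CPM, the counts scaled to library size by TMM over all libraries, which compare libraries but not genes of different length. A gene was called in a comparison at an adjusted p under 0.05 from edgeR's quasi-likelihood test with Benjamini-Hochberg adjustment over all genes tested, and every adjusted p below is from that test unless another is named. All 16 macrophage markers were present in every macrophage group. In the ex vivo libraries 8 cavity macrophage markers, such as the transcription factor Gata6, summed to 17964 to 20117 CPM, and in macrophages cultured alone to 239 to 688 CPM. Mesothelial markers, known from the lining of the cavity, summed to 1535 to 2579 CPM in PDPN+ cells alone, beside 7109 to 23485 CPM of fibroblast markers. In bulk libraries, fewer cells of a type and less RNA per cell cannot be told apart.

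**Figure D1:**
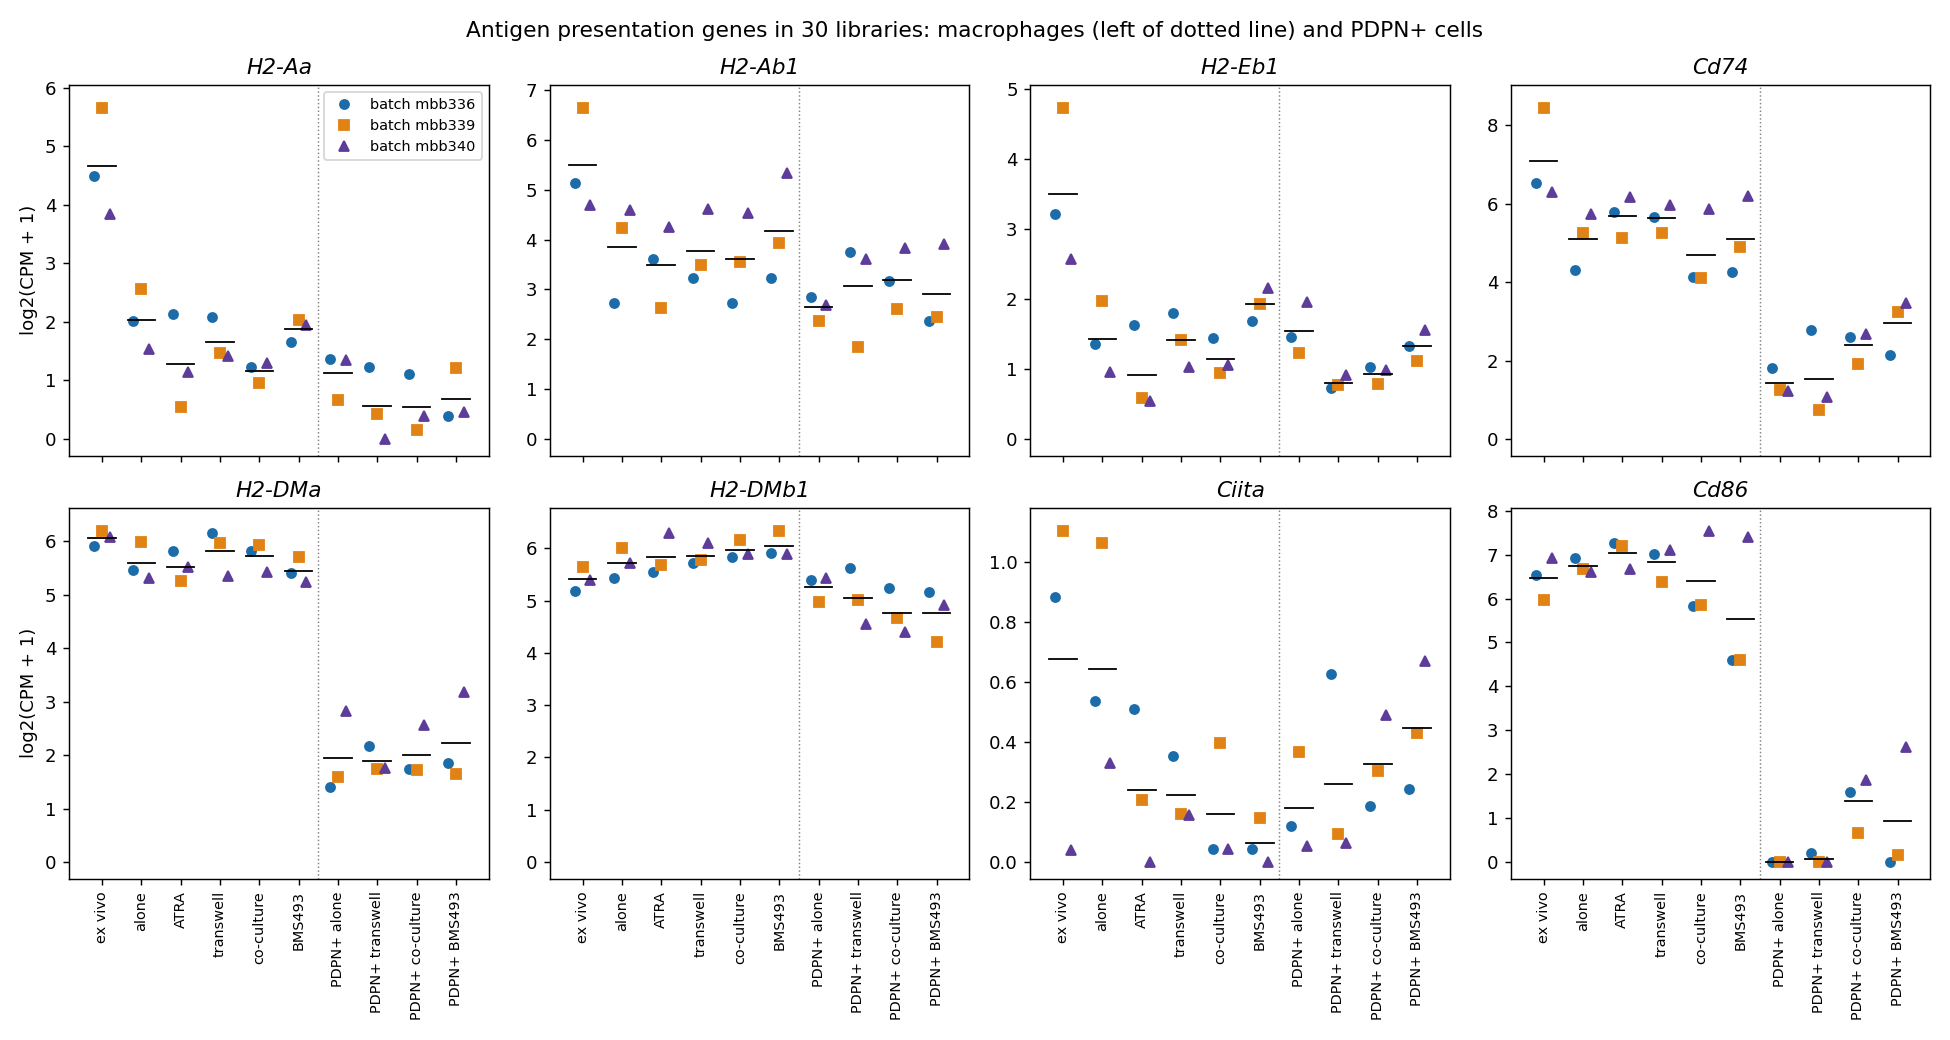
Levels of the 8 genes as log2(CPM + 1) in each of the 30 libraries (points, by batch), with the mean of the 3 libraries of a group as a line; the vertical axes differ between panels. H2-Aa and H2-Eb1 are highest in the 3 ex vivo libraries, and Cd86, Cd74 and H2-DMa are lower in all PDPN+ libraries than in all macrophage libraries, while H2-DMb1 lies close in both.

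The first comparison asks how culture changes the class II genes of macrophages. In macrophages cultured alone, the chain genes H2-Aa and H2-Eb1 and the invariant chain gene Cd74 fell against ex vivo cells, by 4.73-fold to 8.38-fold. H2-Ab1, H2-DMa, H2-DMb1, Ciita and Cd86 were not called. Of the 8 genes, 3 were called lower and 0 higher, where 8.52% of the 17774 genes tested were called lower and 17.9% were called in either direction. The median log2 fold change of the 8 genes was -1.10, beside 0.08 for all genes tested.

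H2-Aa stood at 21.5, 49.3 and 13.4 CPM in the ex vivo libraries of batches mbb336, mbb339 and mbb340 and at 3.05, 4.94 and 1.9 CPM in macrophages cultured alone. The groups did not overlap, and the ex vivo library of batch mbb339 was the highest. The change was -3.07 on the log2 scale (SE 0.65, 8.38-fold lower, adjusted p = 0.00437), and it was negative within each batch.

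H2-Eb1 showed the same pattern, at 8.3, 25.5 and 4.96 CPM ex vivo and 1.56, 2.94 and 0.952 CPM alone. Its change was -2.80 (SE 0.71, 6.99-fold lower, adjusted p = 0.0129). The partner of this chain is encoded by the E alpha gene, listed as the pseudogene H2-Ea-ps, which had 0 counts in both groups.

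Cd74 was at 90.8, 345 and 77.1 CPM ex vivo and at 18.9, 37.4 and 52.4 CPM alone. Its lowest ex vivo library was above the highest cultured one, and the gap was narrowest in batch mbb340. The change was -2.24 (SE 0.68, 4.73-fold lower, adjusted p = 0.0339).

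H2-Ab1, the partner chain of H2-Aa, was at 34.3, 98.5 and 24.9 CPM ex vivo and at 5.65, 17.8 and 23.2 CPM alone. The libraries did not overlap but those of batch mbb340 were nearly level, with a log2 ratio of CPM + 1 of -0.09 against -2.41 and -2.40 in batches mbb336 and mbb339. The change of -1.76 (SE 0.75) was not called (adjusted p = 0.12). With batch as a replicate block it was -2.02 (SE 0.59) and was called lower (adjusted p = 0.0229), in a fit that called 11.7% of genes lower. Without batch mbb340 it was -2.48 (adjusted p = 0.0275).

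Ex vivo replicate 2, of batch mbb339, held the highest level of all 4 of these genes. Without it, H2-Aa was the 1 gene of the 8 still called: Cd74 was at -1.21 (adjusted p = 0.248) and H2-Eb1 at -1.84 (adjusted p = 0.0962). Cd74 was also not called without replicate 1 (-1.95, adjusted p = 0.108) or replicate 2 (-2.26, adjusted p = 0.0901) of the macrophages alone, and H2-Eb1 without replicate 3 of them (-2.44, adjusted p = 0.0524). Markers of cells that are known for high class II differed among the same libraries. Of 8 markers of F4/80-low cavity macrophages and monocytes, 5 were above 1 CPM on average ex vivo and 4 alone, with summed levels of 616 to 842 CPM ex vivo, highest in replicate 2, and 19.8 to 45.3 CPM alone. Among them the chemokine receptor gene Ccr2 was at 5.26, 38.9 and 14.9 CPM ex vivo and 3.02, 2.02 and 2.01 CPM alone. Ccr2 and Retnla were the 2 of that list called lower.
B cell markers summed to 9.11, 16 and 2.28 CPM ex vivo, with 3 of 8 above 1 CPM on average, and to 24.8 to 55.5 CPM alone, with 2 of 8. The B cell receptor gene Cd79a was at 3.07, 4.1 and 1.54 CPM ex vivo, again highest in replicate 2. The 1 gene of that list called, Cd22, was higher alone than ex vivo. Dendritic cell markers summed to 28.8, 10.4 and 28.9 CPM ex vivo, lowest in replicate 2, and to 85.2 to 243 CPM alone. Of that list, Itgax was called higher alone than ex vivo and Batf3 lower. The defining gene Flt3 was at 0, 0.0217 and 0 CPM ex vivo and at 0 alone. The part of these cells in the class II levels was not tested.

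H2-DM, the peptide exchange factor, was measured through both of its chains. H2-DMa stood at 59.5, 72.2 and 66.5 CPM ex vivo and 43.2, 62.4 and 38.8 CPM alone, with overlapping groups and a change of -0.44 (SE 0.25, adjusted p = 0.252). H2-DMb1 stood at 35.2, 49.2 and 41.3 CPM ex vivo and 42.5, 63.6 and 52 CPM alone, with a change of 0.34 (SE 0.21, adjusted p = 0.293). H2-DMa was lower and H2-DMb1 higher within each of the 3 batches, and neither was called.

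Ciita was near the limit of detection throughout. It was at 0.845, 1.15 and 0.0285 CPM ex vivo and at 0.451, 1.09 and 0.256 CPM alone (-0.14, SE 1.18, adjusted p = 0.959). Its level spread more between libraries of a group than between the groups, and at this depth no difference was detectable. Cd86 was at 91.4, 61.6 and 120 CPM ex vivo and 121, 101 and 96.3 CPM alone (0.23, SE 0.65, adjusted p = 0.859).

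Levels between genes were compared only on the authors' size-factor-adjusted RPKM, which divides by gene length. Ex vivo, Cd74 was the highest at 124 ± 110 RPKM (SD, n = 3), followed by H2-Ab1 at 44.3 ± 34, H2-DMa at 43.3 ± 4.11, Cd86 at 36.5 ± 11.3, H2-DMb1 at 30.4 ± 5.09, H2-Aa at 25.3 ± 17.1, H2-Eb1 at 11.2 ± 9.57 and Ciita at 0.132 ± 0.113. In macrophages cultured alone, Cd86 (42.7 ± 5.64), H2-DMb1 (38.4 ± 7.88) and H2-DMa (31.7 ± 8.6) stood above the chains H2-Ab1 (13.1 ± 7.47), H2-Aa (2.99 ± 1.42) and H2-Eb1 (1.57 ± 0.895). Cd74 was at 26.2 ± 11.9 RPKM there. On this scale H2-Ab1 was above its partner chain H2-Aa in the means of both groups.

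Other genes of antigen presentation moved in both directions in the same comparison. The lists were drawn up with results of these data known. As background, 17.9% of all genes tested were called in either direction, and their median log2 fold change was 0.08. List medians were 1.43 for endosomal processing and 2.49 for costimulation and inhibition. They were -0.28 for the class II promoter factors and 0.05 for class I, closer to that of all genes. Whether a list departs from this background was not tested. In the endosomal processing list 4 of 8 genes rose and 0 fell: the cathepsin genes Ctsd (2.71, SE 0.34, adjusted p = 8.39e-05), Ctsl (2.71, SE 0.81, adjusted p = 0.0308), Ctsb (1.63, SE 0.36) and Ctss (1.61, SE 0.22, adjusted p = 0.00016), the protease known for the last step of invariant chain trimming. Ctss stood at 1651, 1169 and 1522 CPM ex vivo and at 3311, 5159 and 4745 CPM alone. The Ctsl call was lost without any 1 of the 3 ex vivo libraries or without replicate 3 of the macrophages alone (changes of 1.65 to 2.96).

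Of 6 genes for class II turnover and the tetraspanins that sit beside class II, 4 rose and 0 fell. March1 encodes the ubiquitin ligase known to remove class II and CD86 from the surface, and it rose by 1.42 (SE 0.41, adjusted p = 0.0239). Cd83, whose protein is known to oppose March1, rose by 4.64 (SE 0.64, adjusted p = 0.000178), from 1.78, 1.15 and 0.741 CPM to 49.2, 30.7 and 10.4 CPM. The tetraspanin genes Cd63 (4.34, SE 0.27) and Cd81 (1.57, SE 0.39) rose too. The March1 call was lost without any 1 ex vivo library or replicate 3 alone (1.02 to 1.51), and the Cd81 call without ex vivo replicate 2 (1.38).

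Of 9 costimulatory and inhibitory surface genes beside Cd86, 4 rose and 0 fell. Cd274, which encodes PD-L1, rose by 4.45 (SE 1.37, adjusted p = 0.0351), from 10.3, 9.85 and 6.98 CPM to 43.1, 71.3 and 491 CPM, the highest value being that of batch mbb340. Cd276 (5.56, SE 0.79), Tnfsf9 (2.49, SE 0.65) and the adhesion gene Icam1 (2.20, SE 0.23) were the others. Cd276 stayed low, at a mean of 3.67 CPM alone. The Cd274 call was lost without any 1 ex vivo library or without replicate 3 alone, whose absence took the change to 2.74 (adjusted p = 0.156). The Tnfsf9 call was lost without ex vivo replicates 1 or 2 or replicate 3 alone, where it was 1.60 to 2.50.

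Among regulators of class II, 1 of 7 promoter factor genes was called, Nfyb (-0.80, SE 0.15), and 0 of the 3 RFX genes. Of 8 genes on the interferon gamma route to Ciita, the receptor chain gene Ifngr2 rose (1.87, SE 0.23) and Irf2 fell (-1.65, SE 0.52). Of 4 myeloid factor genes, Irf8 rose (0.98, SE 0.25), as did Prdm1 (4.86, SE 0.89, adjusted p = 0.00159), whose product is known to repress Ciita. Prdm1 averaged 0.854 CPM ex vivo and 25.1 CPM alone. The Irf2 call was lost without any 1 of 5 of the 6 libraries (-1.74 to -1.28, all but replicate 1 alone), and the Irf8 call without ex vivo replicate 2 (0.83).

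The class I pathway, which shows peptides of the cell's own proteins to CD8+ T cells, served as the neighbouring route. Of 13 genes, 1 rose, B2m (2.01-fold, adjusted p = 0.0347), and 3 fell: the chaperone genes Pdia3 (-1.54, SE 0.22) and Calr (-1.43, SE 0.38) and the trimming peptidase gene Erap1 (-0.77, SE 0.18). The B2m call was lost without any 1 ex vivo library (0.87 to 1.14) or replicate 2 alone (0.60), and the Calr call without ex vivo replicate 2 or replicates 1 or 2 alone (-1.26 to -1.24). Of 5 further class II genes 3 could be tested and 0 were called by edgeR, with 1 at an unadjusted p under 0.05. H2-Ob, a chain of the H2-DM inhibitor H2-O, was at 5.92, 6.79 and 6.95 CPM ex vivo and 3.78, 1.52 and 0.256 CPM alone. The other 2 tested went the other way. H2-DMb2 was at 2.66, 3.34 and 3.48 CPM ex vivo and 5.2, 5.48 and 4.69 CPM alone. H2-Oa was at 0, 0.0651 and 0.2 CPM ex vivo and 0.104, 1.11 and 1.87 CPM alone.

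**Figure D2:**
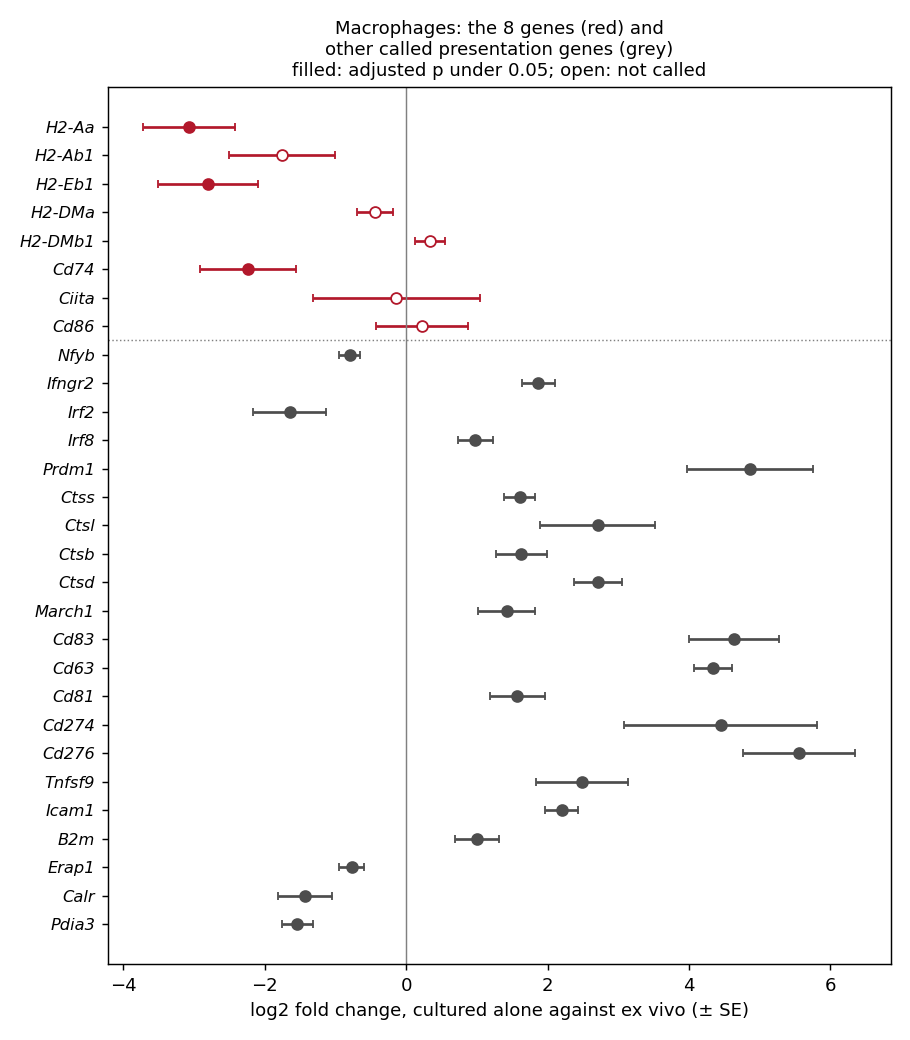
Log2 fold change (± SE) in macrophages cultured alone against ex vivo for the 8 genes (red) and the other called genes of the presentation lists (grey), 3 libraries in each group; filled points passed an adjusted p under 0.05. H2-Aa, H2-Eb1 and Cd74 lie at -3.07, -2.80 and -2.24, while the cathepsin genes and Cd83, Cd63, Cd274 and Cd276 lie above 0.

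The next comparisons ask what retinoic acid and the PDPN+ cells do to the class II genes of cultured macrophages. No member was called in any of these 6 comparisons: ATRA against alone (0.321% of genes called), co-culture against alone (0.692%), transwell against alone (0.0281%), co-culture against transwell (0.0338%), BMS493 against co-culture (0.85%) and BMS493 against alone (0.698%). The ATRA, co-culture, transwell and BMS493 comparisons against macrophages alone share those macrophages as their controls. By DESeq2 the count was 0 of 8 in each of the 6 as well. At an unadjusted p under 0.05, edgeR gave 1 member in co-culture against alone, 1 in BMS493 against alone and 0 in the other 4.

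Among the 15 cultured libraries H2-Aa ranged from 0.464 to 4.94 CPM and H2-Eb1 from 0.464 to 3.48 CPM, so no cultured library reached the lowest ex vivo value of either gene. With ATRA, H2-Aa was at 3.4, 0.464 and 1.21 CPM. In transwell it was at 3.26, 1.78 and 1.66 CPM.

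In co-culture H2-Aa was at 1.36, 0.953 and 1.47 CPM, below all 3 libraries of macrophages alone. The change of -1.45 (SE 0.63) had an unadjusted p under 0.05 and an adjusted p of 0.355, and was not called. With BMS493 H2-Aa was at 2.16, 3.07 and 2.88 CPM, above all co-culture libraries and within the range of macrophages alone.

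H2-Eb1 was at 1.72, 0.914 and 1.09 CPM in co-culture and 2.22, 2.79 and 3.48 CPM with BMS493. These 2 groups did not overlap, as for H2-Aa, and the difference was not called for H2-Eb1 (1.16, SE 0.69, adjusted p = 0.732) or for H2-Aa (2.09-fold higher, adjusted p = 0.728). Unlike H2-Aa, H2-Eb1 in co-culture overlapped macrophages alone, and its mean was higher with BMS493 than alone. With ATRA it was at 2.09, 0.503 and 0.464 CPM, overlapping macrophages alone.

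Cd74 and H2-Ab1 differed between batches among cultured macrophages. The 5 cultured libraries of batch mbb340 ranged from 18 to 39.5 CPM for H2-Ab1, all above those of batches mbb336 (5.63 to 11.3 CPM) and mbb339 (5.14 to 17.8 CPM). For Cd74 they ranged from 52.4 to 72.5 CPM, beside 16.4 to 53.9 CPM in batch mbb336 and 16.1 to 37.4 CPM in batch mbb339. H2-Aa and H2-Eb1 ranged from 1.21 to 2.88 CPM and from 0.464 to 3.48 CPM in batch mbb340, overlapping the other batches, and the highest cultured value of H2-Eb1 was the BMS493 library of that batch. Within batches, BMS493 was above co-culture in all 3 for H2-Ab1 (log2 ratios of CPM + 1 of 0.50, 0.38 and 0.80), Cd74 (0.13, 0.78 and 0.34), H2-Aa (0.42, 1.06 and 0.65) and H2-Eb1 (0.25, 0.99 and 1.10). It was below co-culture in all 3 for H2-DMa (-0.40, -0.23 and -0.18) and Cd86 (-1.25, -1.24 and -0.13). None of the 8 genes was called in this comparison, and with batch as a replicate block 0 were called as well. T cell markers summed to 93.9 CPM in macrophages alone of batch mbb340 and to 23.5 and 25.6 CPM in the other batches. Granulocyte markers summed to 84.2 CPM there and to 4.47 and 19 CPM in the others, with S100a9, Ly6g, Retnlg, Epx and Prg2 at 0. The part of other cells in these levels was not tested.

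H2-DMa and H2-DMb1 were the most even of the 8 genes among cultured macrophages, with ranges of 36.9 to 70.5 CPM and 42.5 to 79.7 CPM over the 15 libraries. In co-culture H2-DMb1 was at 56.3, 70.7 and 58.6 CPM. Ciita had 0 counts in batch mbb340 with ATRA and with BMS493, and its highest cultured value was 1.09 CPM. With BMS493 it was at 0.0313, 0.106 and 0 CPM, below all 3 libraries of macrophages alone, and the change of -3.69 (SE 1.44) was not called (adjusted p = 0.266).

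Cd86 behaved differently in batch mbb340 from the other batches. In batches mbb336 and mbb339 it stood at 121 and 101 CPM in macrophages alone, at 56.1 and 56.7 CPM in co-culture and at 23.1 and 23.4 CPM with BMS493. In batch mbb340 it stood at 96.3 CPM alone, 185 CPM in co-culture and 169 CPM with BMS493. Over all batches the changes were -0.15 (SE 0.65) for co-culture against alone, -0.48 (SE 0.65) for BMS493 against co-culture and -0.63 (SE 0.65) for BMS493 against alone, and none was called.

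Each batch was left out in turn. Without batch mbb340, the batch whose Cd86 levels stood apart, Cd86 was called lower in all 3 comparisons. The changes were -1.07 (SE 0.25, adjusted p = 0.0406) for co-culture against alone, -1.30 (SE 0.25, adjusted p = 0.0331) for BMS493 against co-culture and -2.37 (SE 0.26, adjusted p = 0.00315) for BMS493 against alone. In these fits 1.3%, 1.42% and 2.57% of 18049 genes were called lower. Each rests on 2 libraries in a group, and the spread is pooled over all macrophage groups. Without batch mbb336 or mbb339 instead, Cd86 was called in none of the 3. The change in co-culture against alone was then above 0, at up to 0.25. With ATRA Cd86 was at 152, 145 and 101 CPM, and in transwell at 128, 82 and 136 CPM.

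**Figure D3:**
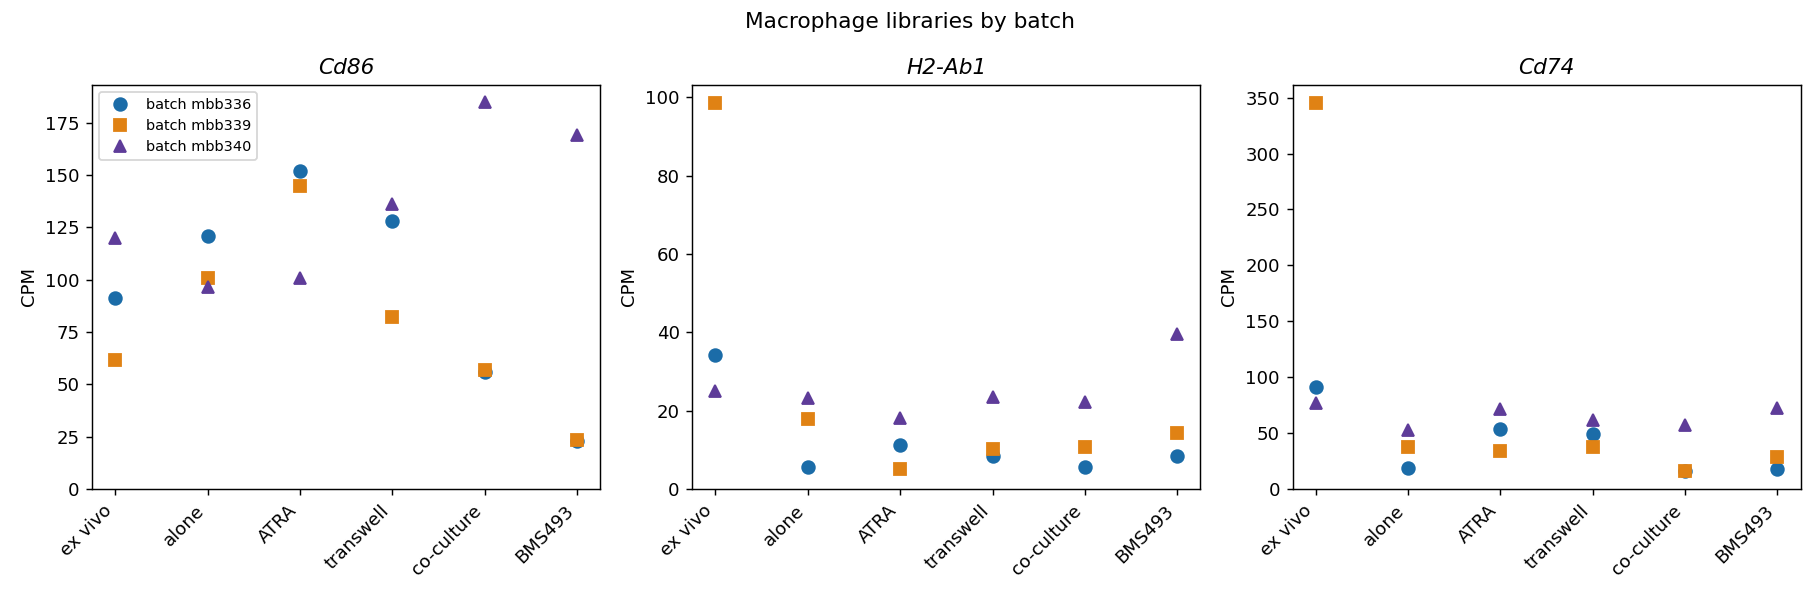
CPM of Cd86, H2-Ab1 and Cd74 in the 18 macrophage libraries by group, with 1 point for each batch. Cd86 is at 23.1 and 23.4 CPM with BMS493 in batches mbb336 and mbb339 and at 169 CPM in batch mbb340, and H2-Ab1 and Cd74 of cultured cells are highest in batch mbb340.

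Fibroblast markers in the macrophage libraries moved with these groups. They summed to 465 to 1179 CPM in co-culture and 691 to 1447 CPM with BMS493, against 9.09 to 319 CPM alone, with 7, 8 and 5 of 9 markers above 1 CPM on average. Pdpn, the gene of the sorting marker itself, was at 223 CPM in macrophages alone of batch mbb340 and at 0.312 and 5.76 CPM in batches mbb336 and mbb339. The part of PDPN+ cells in the Cd86 levels was not tested; PDPN+ cells alone had 0 counts of Cd86.

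In the BMS493 and co-culture comparison, 1 of the 9 costimulation genes was called: Cd276 was higher with BMS493 by 3.46 (SE 0.66, adjusted p = 0.0203), at means of 27.9 and 2.5 CPM. This call was lost without any 1 of 5 of the 6 libraries (3.14 to 3.67, all but BMS493 replicate 3). PDPN+ cells expressed it at a mean of 29.8 CPM alone and 40.6 CPM with BMS493. Fibroblast markers summed to 22253 to 32722 CPM in PDPN+ cells with BMS493. The part of PDPN+ cells in the Cd276 levels was not tested. In the 5 other comparisons of cultured macrophages, 0 genes of the 8 presentation lists were called.

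Pairs of members differed in how closely they tracked each other over the macrophage libraries. On log2(CPM + 1), H2-Aa and H2-Eb1 had a Pearson r of 0.96 and a Spearman rho of 0.88 over 18 libraries, and 0.83 and 0.80 over the 15 cultured ones. H2-Ab1 and Cd74 had 0.87 and 0.86 over 18 libraries, and 0.72 and 0.77 over the cultured ones. Without the 2 libraries farthest from the median of the first gene, r over the cultured libraries was 0.77 and 0.74 for these pairs. The partner chains were less close over 18 libraries, with an r of 0.70 for H2-Aa and H2-Ab1 and -0.25 for H2-DMa and H2-DMb1. These values are descriptions: libraries share batches, the ex vivo libraries lie apart, and no p is given.

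The 10 genes outside the group whose levels were most like H2-Ab1 over the 18 macrophage libraries, of 8382 with a mean of at least 10 CPM, were Rnaseh2a (r = 0.87), Nck1, Dbr1, Parl, Adprh, Nxt1, Med27, Vdac3, Gpx1 and Hmgn2 (r = 0.82). H2-DMb1 had an r of -0.08 with H2-Ab1, H2-DMa 0.17 and Cd86 0.12. Over the 12 PDPN+ libraries the 10 were Ier3, Dhps, Mcub, Adprh, B4galt7, Pqlc1, Smg6, Junb, Bsg and 9530082P21Rik, with r from 0.82 to 0.78.

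**Figure D4:**
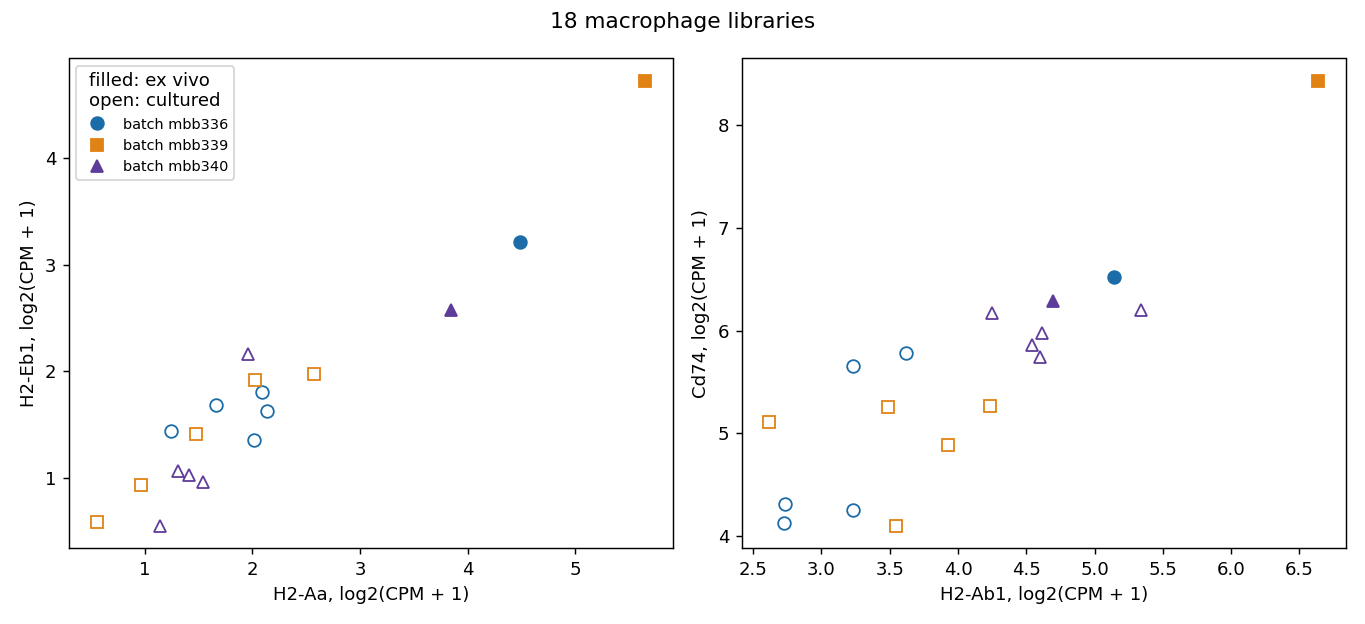
H2-Eb1 against H2-Aa and Cd74 against H2-Ab1 in the 18 macrophage libraries, both axes as log2(CPM + 1), with filled points for ex vivo and open points for cultured cells. The r over all 18 libraries is 0.96 in the left panel and 0.87 in the right, where the 5 open points of batch mbb340 lie to the right of all other cultured libraries.

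The PDPN+ cells were then compared with macrophages, both cultured alone. Cd86, Cd74 and H2-DMa were lower in PDPN+ cells, while H2-Aa, H2-Ab1, H2-Eb1, H2-DMb1 and Ciita were not called. Of the 8 genes, 3 were called lower and 0 higher, where 16.6% of 20987 genes were called lower and 38.8% in either direction. The median over the 8 was -1.90, beside 0.08 for all genes tested.

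Cd86 had 0 counts in all 3 libraries of PDPN+ cells alone. Taking 3 counts over the group as the floor, it was at least 4918-fold higher in macrophages, at 106 ± 13.2 CPM (SD, n = 3), with an adjusted p of 1.15e-05; floors cover counting error only. Cd74 was at 2.49, 1.37 and 1.34 CPM in PDPN+ cells, 21.5-fold lower than in macrophages (-4.43, SE 0.82, adjusted p = 0.000155). H2-DMa was at 1.65, 2 and 6.1 CPM, 15.1-fold lower (-3.91, SE 0.51, adjusted p = 1.87e-06).

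H2-DMb1, the partner chain of H2-DMa, differed less between the cell types. It stood at 41, 30.5 and 42.3 CPM in PDPN+ cells alone, just below the 42.5, 63.6 and 52 CPM of macrophages (-0.52, SE 0.30, adjusted p = 0.179). On the length-adjusted scale PDPN+ cells had 27.5 ± 5.03 RPKM of H2-DMb1 and 2.16 ± 1.72 RPKM of H2-DMa (SD, n = 3). Both chains are needed for H2-DM. The near copy H2-DMb2 was at 0.0858, 0.0526 and 0.0183 CPM in PDPN+ cells and 5.2, 5.48 and 4.69 CPM in macrophages.

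The chain genes were low in PDPN+ cells alone. H2-Ab1 was at 6.22, 4.16 and 5.48 CPM (-1.60 against macrophages, SE 0.74, adjusted p = 0.09), and H2-Aa at 1.57, 0.579 and 1.54 CPM (-1.47, SE 0.94, adjusted p = 0.228). H2-Eb1 was at 1.74, 1.34 and 2.89 CPM, within the spread of macrophages alone (0.09, SE 0.58, adjusted p = 0.922). Ciita was at 0.0858, 0.289 and 0.0366 CPM (-2.20, SE 1.20, adjusted p = 0.154).

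Other presentation genes were called lower in PDPN+ cells alone in most lists, where 16.6% of all genes were called lower. Of the 5 further class II genes all 3 tested were called lower: H2-Oa, H2-Ob and H2-DMb2. Their means in macrophages alone were 1.03, 1.85 and 5.12 CPM. For endosomal processing 7 of 8 were lower, led by Ctsd and Ctss. For costimulation 5 of 9 were lower, with Cd276 called higher, and for class I 10 of 13, with Calr and Pdia3 called higher. Ctss, for example, was at a mean of 2.05 CPM in PDPN+ cells and 4405 CPM in macrophages (-11.10, SE 0.92, adjusted p = 3.26e-09). Of the 7 class II promoter factor genes 2 were called higher in PDPN+ cells, Nfyb (0.64, SE 0.19) and Nfyc (0.51, SE 0.18). Among all genes tested 38.8% were called in either direction. The Nfyb call was lost without PDPN+ replicate 1 (0.53) and the Nfyc call without replicate 2 or 3 of either cell type (0.42 to 0.51). The Calr call was lost without replicate 1 or 2 of either cell type (0.84 to 0.94) and the Pdia3 call without PDPN+ replicate 2 (0.69). Of the 8 genes on the interferon gamma route 4 were lower, the receptor genes Ifngr1 and Ifngr2 and the factor genes Irf1 and Irf2.

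In PDPN+ cells no member was called in co-culture against alone (0% of 19134 genes), transwell against alone (0%), BMS493 against co-culture (0.0157%) or BMS493 against alone (0.199%). At an unadjusted p under 0.05, edgeR gave 2, 1, 0 and 2 members, and DESeq2 called 0 in each. The 3 comparisons against PDPN+ cells alone share those controls.

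Cd86 was detected in all 3 PDPN+ co-culture libraries. It was at 2.03, 0.581 and 2.67 CPM in co-culture, at least 81.6-fold higher than in PDPN+ cells alone by the same floor. The change was not called (adjusted p = 0.486). In transwell Cd86 was at 0.159, 0 and 0 CPM, and with BMS493 at 0, 0.124 and 5.18 CPM. Macrophage markers moved with it: the 16 markers summed to 1782 to 2591 CPM in co-culture, 1738 to 4029 CPM with BMS493 and 114 to 701 CPM in transwell, against 89.4 to 154 CPM alone. All 16, 15, 14 and 11 of them were above 1 CPM on average in these groups, and none was at 0 in co-culture. Expressed as a share of the level in macrophages of the same batch and group, after the level in PDPN+ cells alone was taken off, the markers had a median of 1.45%, 1.21% and 1.54% in co-culture, and Cd86 had 3.62%, 1.02% and 1.44%. With BMS493 the marker medians were 1%, 2.09% and 2.14%, and Cd86 had 0%, 0.531% and 3.07%. Single markers spread widely around these medians, from -4.39% to 2.09% in co-culture and from -17.5% to 3.62% with BMS493, negative values being levels below those of PDPN+ cells alone. The part of macrophage RNA in these libraries was not tested beyond these shares.

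Cd74 was higher in each co-culture library of PDPN+ cells (5.11, 2.75 and 5.38 CPM) than in any library alone, and in each with BMS493 (3.39, 8.5 and 10.1 CPM). In transwell it was at 5.91, 0.682 and 1.09 CPM, with 1 library above and 2 below all libraries alone. The change with BMS493 against alone was 2.07 (SE 0.78, adjusted p = 0.383) and was not called. Its share of the macrophage level in co-culture was 16%, 8.58% and 7.07%. The highest share of any of the 16 macrophage markers there was 2.09%, 1.82% and 2.08%. In transwell the share of Cd74 was 6.93%, -1.84% and -0.406%, and with BMS493 it was 5%, 25% and 12.1%. The highest marker share was 3.69%, 2.19% and 0.776% in transwell and 1.28%, 3.09% and 3.62% with BMS493. H2-Eb1 went the other way, at 1.05, 0.717 and 0.976 CPM in co-culture (-1.14, SE 0.46, adjusted p = 0.537) and 0.657, 0.704 and 0.883 CPM in transwell (-1.38, SE 0.47, adjusted p = 1), below all libraries alone and not called.

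The remaining members varied without a called difference in PDPN+ cells. H2-Ab1 ranged from 2.57 to 14 CPM over the 12 libraries, H2-Aa from 0 to 1.57 CPM, H2-DMa from 1.65 to 8.07 CPM, H2-DMb1 from 17.4 to 48.3 CPM and Ciita from 0.0366 to 0.591 CPM. PDPN+ co-culture replicates 2 and 3 came from the fewest cells (3730 and 2148). Mesothelial markers summed to 1535 to 2579 CPM in PDPN+ cells alone and to 149 to 1542 CPM in transwell. They summed to 36.3 to 1034 CPM in co-culture and 12.8 to 1066 CPM with BMS493, and 0 of the 6 were called in these groups against alone. The part of mesothelial cells in the levels of the 8 genes was not tested.

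The response to co-culture was compared between the cell types in a model of all 30 libraries, added after the data had been seen. No member was called there, where 0.967% of genes were. Cd86 had the largest difference, -9.13 (SE 2.53, adjusted p = 0.0946), whose size depends on the prior count because PDPN+ cells alone had 0 counts, and Ciita had -3.26 (SE 1.72, adjusted p = 0.511). H2-DMb1 was higher in co-culture than alone in macrophages of every batch (log2 ratios of CPM + 1 of 0.40, 0.15 and 0.17) and lower in PDPN+ cells of every batch (-0.16, -0.31 and -1.05), and the difference between the responses was 0.70 (SE 0.42, adjusted p = 0.586). H2-Ab1 differed by -1.02 (SE 1.02, adjusted p = 0.784).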

How the data were processed

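PolyA RNA of 30 mouse libraries was sequenced; replicates 1, 2 and 3 of each group carry the same labelled batch, so the numbers pair the libraries (median correlation of deviations from the group means 0.353 for macrophage pairs of 1 batch, -0.141 for other pairs). Per the file headers, the deposited tables hold whole-number counts of uniquely aligning reads per gene and an RPKM that the authors adjusted by size factors. GSNAP and GRCm38 are named in the submitters' processing notes; versions, annotation, strand and filter settings are not stated there. For the co-culture pair of batch mbb336, the source names contradict the titles and the cell type label, and the titles were used; Adgre1, the gene of F4/80, matched the titles. Identifiers without a symbol (192) held 0.0358% of counts.

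Counts were tested with edgeR 4.0.16 (R 4.3.3, limma 3.58.1): TMM scaling, the default low count filter by group and the robust quasi-likelihood test with group as the only factor, over 18 macrophage, 12 PDPN+ or all 30 libraries (17774, 19134 and 20987 genes). Standard errors (SE) are the absolute log2 fold change over the square root of F. Alternatives were DESeq2 1.42.0 size factors and test, no low count filter, a batch block, only the 6 libraries compared, and leaving out libraries. The procedure was tested on simulated data. The 8 genes, the lists and the comparisons were chosen with earlier results of these data known. Named genes are the members, called genes of the lists (up to 4 in each direction, at least 1 CPM), the 10 most like H2-Ab1 and markers. No pair of replicates was a copy (lowest chi-square per degree of freedom 29.42). Markers of T cells, mast cells, granulocytes and endothelium were also examined: in macrophages alone against ex vivo, 1, 0, 1 and 1 of them were called, all higher.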

Additional observations from a re-analysis of the deposited data

Results flagged for a closer look

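The change of Cd86 from cells alone to the BMS493 groups differed between the cell types, in a test added after the data had been seen. Whether these cultures held both cell types is not in the labels, so BMS493 and partner cells cannot be told apart here. The same contrast for co-culture gave -9.13 (SE 2.53, adjusted p = 0.0946). In PDPN+ cells, BMS493 against co-culture was -0.04 (SE 1.71) and was not called. In macrophages Cd86 was lower with BMS493 than alone in batches mbb336 and mbb339 and higher in batch mbb340 (log2 ratios of CPM + 1 of -2.34, -2.06 and 0.80), and in PDPN+ cells the ratios were 0.00, 0.17 and 2.63. The fitted difference was -9.60 on the log2 scale (SE 2.50, edgeR adjusted p = 0.0495). Its size depends on the prior count, since PDPN+ cells alone had 0 counts of Cd86. The call was lost in 9 of 12 fits that left out 1 library (-9.69 to -4.81), most without PDPN+ BMS493 replicate 3 (-4.81, adjusted p = 0.523), which held 5.18 CPM of Cd86 beside 0 and 0.124 CPM in the others. It was also lost in all 3 fits without a replicate of every group (-9.68 to -6.53, adjusted p of 0.2 to 0.521), with DESeq2 size factors (adjusted p = 0.0502) and with no low count filter (adjusted p = 0.114), and kept with the batch block (adjusted p = 0.0201) and in DESeq2 (adjusted p = 0.000281). Macrophage markers in the same PDPN+ libraries summed to 1738, 4029 and 2676 CPM; their part was not tested.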

How the results depend on the processing

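In macrophages cultured alone against ex vivo, the number of members called was 3, and 0 to 4 when libraries were left out: 1 without ex vivo replicate 2 or without replicate 1 of every group, and 0 without replicate 2 of every group. With batch as a replicate block 4 were called, H2-Ab1 being the addition, and the block changed no other call among the members. Cd74 was called in 7 of 14 alternatives and was not called with no low count filter (adjusted p = 0.0796) or with only the 6 libraries compared (adjusted p = 0.0704). H2-Aa was called in 13 of 14, all but without replicate 2 of every group (adjusted p = 0.0513). Leaving out replicate 3 of every group gave 1 called member, Cd86, in co-culture against alone, BMS493 against co-culture and BMS493 against alone, where 0 were called over all libraries and 0 to 1 over the fits that left libraries out. The other 8 comparisons kept their counts of called members in all alternatives run: 3 in PDPN+ cells against macrophages and 0 elsewhere. Directions that turned were those of uncalled genes: Ciita alone against ex vivo (-0.14) was 0.29 with the replicate block and -0.90 to 0.48 without 1 library, and up to 0.26 without a replicate of every group. Cd86 in co-culture against alone was -0.95 to 0.14 without 1 library and -1.07 to 0.25, with 0.12 between, without a replicate of every group, and in BMS493 against co-culture -2.12 to 0.32 without 1 library. H2-Eb1 in PDPN+ cells against macrophages (0.09) was -0.01 with only the 6 libraries compared, -0.30 to 0.64 without 1 library and -0.69 to 0.80 without a replicate of every group. Over all 96 pairs of member and comparison, 44 changed sign in at least 1 alternative, in 115 of 1336 fits. Depth limits Ciita, which stayed at or below 1.15 CPM, and Cd86 in PDPN+ cells.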
